A study of Mus musculus with 8 samples.

Results

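The difference between GFP+ and GFP- cells that arterial hematopoietic cluster cells and arterial endothelial cells have in common was measured on 8 of the 8 expression arrays of the series. All 4 arrays of GFP+ cells were set against all 4 arrays of GFP- cells, with cell class and replicate as blocks, and the genes described are those that differed in the same direction and by a similar size in both classes. Of 19538 genes tested, 361 met that description at 2-fold or more, 207 of them higher and 154 lower in GFP+ cells.

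All embryos carried Tg(Ly6a-GFP), a transgene in which regulatory sequence of Ly6a drives green fluorescent protein (GFP), and came from C57BL/6 x 129S1/SVImJ F1 mothers mated with transgenic males. At E10.5 the A+U+V tissue (the aorta-gonad-mesonephros region with the umbilical and vitelline arteries) of 100 embryos was dissected and sorted. Every group carried CD31, VE-cadherin and ESAM at the surface. Cluster cells also carried Kit and endothelial cells did not. The GFP+ groups held 30000 cluster cells and 70000 endothelial cells, and the GFP- groups held 130000 and 300000. The RNA of each of the 4 groups was split into 2 fractions before amplification. The 2 arrays of a group are therefore technical replicates of a single RNA. P-values of the average difference measure the spread between such arrays and between the 2 classes. Those of a single class, or of the difference between classes, measure only the spread between such arrays. None measures the spread between embryos or sorts. GFP reports the transgene and not the endogenous gene, and no untreated or non-transgenic group was part of the design.

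Ly6a encodes Sca-1, a small surface protein anchored in the membrane by a lipid and long used as a marker of mouse hematopoietic stem cells. In the mid-gestation embryo, hematopoietic stem and progenitor cells arise from specialised, hemogenic endothelium of the large arteries: endothelial cells round up, form clusters on the vessel wall, lose endothelial features and take on blood cell features. A transgene with Ly6a regulatory sequence marks part of that endothelium and part of the clusters. Ly6a is itself an interferon-inducible gene, and Gfi1 encodes a transcriptional repressor that represses the endothelial programme during this transition.

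Levels are log2 of the array signal relative to the array's 75th percentile, so a difference of 1 is 2-fold; a level is not compared between genes, because probes differ in brightness. The 75th percentile lay between 708 and 1477 signal units, 54.6% to 63.7% of the probes on an array stood well above background, and no spot was saturated. The 2 arrays of a group correlated at 0.995 to 0.998 over genes. Of the sums of squares over all tested genes, cell class took 37.3%, GFP state 35.7%, and the part of the GFP difference that was not the same in both classes 14.5%, while slide took 5.24%.

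The labels were checked on Ly6a first (chromosome 15, 74825553 to 74825612, build mm9). Its level was -0.48 and -0.57 on the GFP+ cluster arrays, 0.37 and 0.42 on the GFP+ endothelial arrays, -3.95 and -3.87 on the GFP- cluster arrays, and -3.40 and -3.95 on the GFP- endothelial arrays. The 4 GFP+ arrays lay far above the 4 GFP- arrays in both classes, as the labels have it, and the probe was well above background on all 8. The average difference was 3.73 ± 0.18 (SE of the fit, n = 4 arrays against 4), 3.39 in cluster cells and 4.07 in endothelial cells; since the cells were sorted on a Ly6a reporter this is a check and not a finding. Of the other sort genes, Cdh5 (VE-cadherin) was lower in GFP+ cells by a small amount (average -0.35 ± 0.06, adjusted p = 0.015 in limma's fit). Pecam1 (CD31) at 0.07, Esam at -0.05 and Kit at 0.44 did not pass the test of the average. Kit differed by 0.89 in cluster cells and -0.01 in endothelial cells, and Pecam1 by -0.25 and 0.38. For both the class difference was called (adjusted p = 0.0034 and 0.015 in limma's fit). Esam differed by -0.08 and -0.02, and its class difference was not called. Endothelial genes were present in all groups: the summed linear level of 6 of them (Cdh5, Pecam1, Kdr, Tie1, Tek, Erg) was 58.8 to 60.3 times the array's 75th percentile on GFP+ cluster arrays, 73.7 to 73.9 on GFP- cluster, 75.3 to 76.6 on GFP+ endothelial and 82.9 to 87.7 on GFP- endothelial arrays. The same sum over 5 blood cell genes (Ptprc, Spn, Runx1, Myb, Coro1a) was 29.2 to 30.3, 7.64 to 7.71, 2.38 to 2.42 and 1.64 to 1.76 in that order.

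The average GFP difference passed an adjusted p of 0.05 (limma, Benjamini-Hochberg over all tested genes) for 5438 genes, 27.8% of those tested. Of these, 1708 (8.74%) were higher and 3730 (19.1%) lower in GFP+ cells; after quantile normalization 45.7% of calls were higher, against 31.4% here, so the balance of small differences depends on the scaling. The median difference of all genes was -0.11, and list medians below are given relative to it. In this fit a gene whose difference was unequal in the classes has a larger error, so the calls lean toward genes that moved alike. At 2-fold or more, 423 genes (2.17%) were called higher and 331 (1.69%) lower. All 754 of these had the same sign in both classes. That follows from the fit and is no result, because opposite class differences count as error in it. Of the 754, 752 had the same sign in each of the 4 differences within a class and a slide, which the fit favours too. Of all genes 49.7% did. On 1525 genes (7.81%) the 4 GFP+ arrays all lay above the 4 GFP- arrays, and on 3654 (18.7%) all below. Tested class by class, 1331 genes (6.81%) were called higher in both classes, 2393 (12.2%) lower in both, 3724 (19.1%) in the same direction and 880 (4.5%) in opposite directions. A gene was counted as shared when its smaller class difference was at least 2/3 of the larger; 207 higher genes (1.06% of those tested) and 154 lower genes (0.788%) qualified, 49% and 47% of the 2-fold calls. After quantile normalization 235 higher and 99 lower genes did, so 70.4% of the set was higher against 57.3% here, and in the authors' normalized values 235 and 98. Just inside that limit was Tbc1d16, with a ratio of 0.667, and just outside was Fcgr3, with 0.666. Well above background on all 8 arrays were 144 of the 207 and 67 of the 154. For 87 of the 361 the difference between the classes was itself called, against 36.3% of all genes, so a similar size is not an equal one; for 257 the 95% interval of the class difference lay within 1 log2 unit either way.

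These calls rest on treating arrays of divided RNA as separate. With the 2 arrays of each RNA averaged, which leaves 4 RNA samples and 1 residual degree of freedom, limma called 0 genes, and 2350 had an unadjusted p under 0.05; with the RNA as a random block 885 genes were called and 266 were shared at 2-fold. Without any 1 of the 8 arrays 2454 to 3487 genes were called, and 341 to 364 were shared. Of the 4 differences per gene, those in one class come from the same pair of RNA samples.

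**Figure D1:**
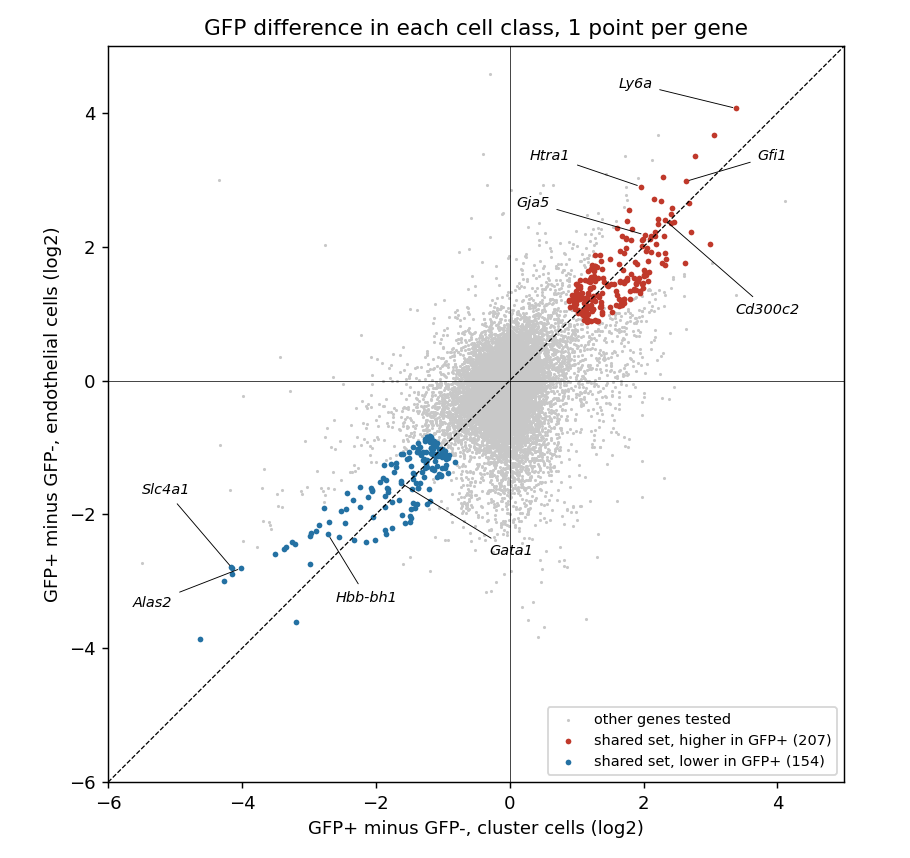
GFP+ minus GFP- difference (log2) of each of the 19538 tested genes in cluster cells (horizontal) and endothelial cells (vertical); the dashed line marks equal differences. The shared set, 207 genes higher (red) and 154 lower (blue), follows the line because the rule chose it so; differences of genes not well above background are fitted values and not measured folds.

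Among genes with a symbol that were well above background on all 8 arrays, Gfi1 (chromosome 5, 108145719 to 108145778) had the largest shared difference after Ly6a in the direction higher in GFP+ cells. Its level was 2.67 and 2.55 on GFP+ cluster arrays, -0.05 and 0.01 on GFP- cluster arrays, 0.44 and 0.41 on GFP+ endothelial arrays, and -2.62 and -2.48 on GFP- endothelial arrays. Within each class GFP+ cells were higher, and GFP+ endothelial cells lay above GFP- cluster cells. The average difference was 2.80 ± 0.09 (adjusted p = 0.00021). The class differences were 2.63 and 2.98, and the endothelial one was larger by 0.35 (95% interval 0.07 to 0.62, adjusted p of the class difference 0.059).

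Cd300c2 (chromosome 11, 114858084 to 114858143), a member of the CD300 family of leukocyte surface receptors, differed by almost the same amount in both classes. Its levels were -0.61 and -0.69 on GFP+ cluster, -2.92 and -3.03 on GFP- cluster, -2.36 and -2.45 on GFP+ endothelial, and -4.72 and -4.89 on GFP- endothelial arrays. The differences were 2.32 and 2.39, and their own difference of 0.07 had a 95% interval of -0.10 to 0.24. S100a4, a small calcium-binding protein of motile cells, was at -0.39 and -0.41, -2.58 and -2.64, -1.47 and -1.46, and -3.85 and -3.89 in the same order. All 4 GFP+ arrays lay above all 4 GFP- arrays, and the average was 2.31 ± 0.06; its other probe gave 2.81 and 3.78 in cluster and endothelial cells. Gja5 (chromosome 3, 96857349 to 96857408), which encodes the arterial gap junction protein connexin 40, was at 2.59 and 2.55, 0.56 and 0.55, 4.15 and 4.19, and 1.93 and 2.06. It was higher in endothelial than in cluster cells at either GFP state, and the GFP differences of 2.01 and 2.18 were alike (class difference 0.16, 95% interval -0.05 to 0.38); its other measured probe, bright enough on 6 arrays, gave a smaller average of 0.78. The surface protein gene Ly6c1, a neighbour of Ly6a on chromosome 15, was at 0.76 and 0.93, -1.23 and -1.06, 1.42 and 1.41, and -0.70 and -0.67. Its differences of 1.98 and 2.10 were alike as well, and its second probe gave 0.82; genes of the Ly6 family are near copies, and signal shared between their probes cannot be told apart here. Slfn2 (average 2.11 ± 0.07), a Schlafen family gene that keeps immune cells quiescent, and Lgals9 (2.06 ± 0.06), which encodes galectin-9, complete the genes whose class difference was not called. Lgals9 (chromosome 11, 78776922 to 78776981) was at 0.40 and 0.38 on GFP+ cluster, -1.64 and -1.58 on GFP- cluster, -1.50 and -1.54 on GFP+ endothelial and -3.56 and -3.70 on GFP- endothelial arrays. GFP+ endothelial cells were thus barely above GFP- cluster cells, while the difference within each class was large.

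For 4 of the 12 largest shared higher genes the 2 classes did differ. Htra1, a secreted serine protease that acts on TGF-beta signalling and matrix proteins, rose by 1.96 in cluster cells and 2.90 in endothelial cells, and Pdlim3, a muscle and cytoskeletal adaptor, by 1.75 and 2.38. Tyrobp, the DAP12 adaptor of myeloid receptors, rose by 2.33 and 1.90, and Slc11a1, the phagosomal metal transporter of macrophages, by 2.33 and 1.82. The myeloid genes thus had the larger difference in cluster cells, and the other pair in endothelial cells.

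**Figure D2:**
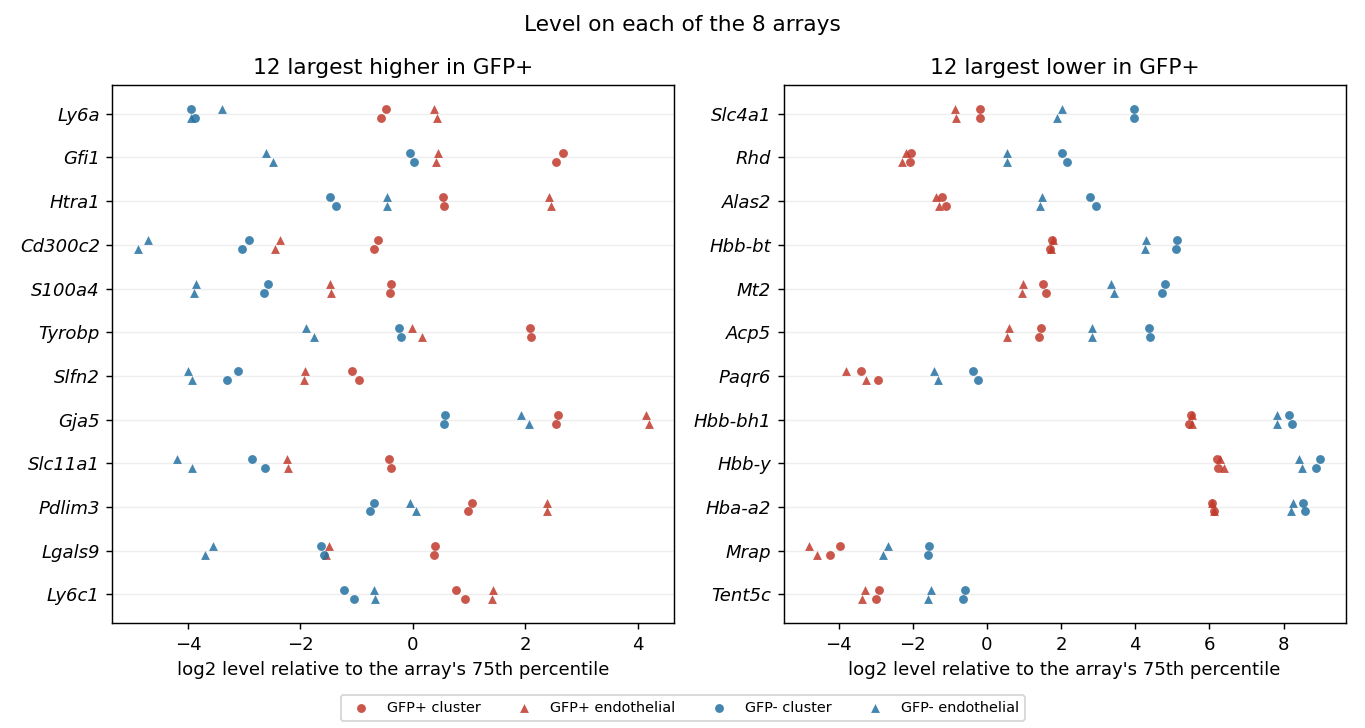
Level on each of the 8 arrays (log2, relative to the array's 75th percentile; 1 point per array, replicate 1 above replicate 2) for the 12 largest shared genes each way that were well above background on all arrays. For each gene the 4 GFP+ points (red) lie on 1 side of the 4 GFP- points (blue), which follows from choosing genes by their size; Gfi1 and Gja5 are among those that also differ between cluster cells (circles) and endothelial cells (triangles).

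Some genes were well above background in only one GFP state, and their difference is then a lower bound. Over both classes Pnoc (a neuropeptide precursor) was at least 4.98-fold higher in GFP+ cells, Syt15 (a synaptotagmin) at least 4.52-fold and Vdr, the vitamin D receptor, at least 3.98-fold. Bcl2a1d, a BCL2 family survival factor, was at least 3.28-fold higher, and Ltf (lactoferrin) at least 2.94-fold. The Ltf value leans on 1 array: the GFP+ endothelial arrays were at -4.17 and -2.23, and the difference in cluster cells was not called (adjusted p = 0.15). Only Vdr and Bcl2a1d of these met the rule for a similar size; for Vdr the bounds were 4.42-fold in cluster cells and 3.58-fold in endothelial cells. In the other direction Ank1 was at least 6.67-fold lower in GFP+ cells, Mst1 at least 6.05-fold, Epb42 at least 3.58-fold, Lexm at least 2.99-fold and Tmod1 at least 2.69-fold. Ank1, Epb42 and Tmod1 encode parts of the red cell membrane skeleton. Mst1, which encodes macrophage-stimulating protein, was shared, with bounds of 6.32-fold and 5.79-fold.

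Interferon-stimulated genes were higher in GFP+ cells of both classes. Interferons act through their receptors and JAK kinases on STAT and IRF factors, which bind the interferon-stimulated response element in the promoters of genes that restrict viruses. Of 66 tested genes of this response, 44 rose (66.7%), 1 fell (1.52%) and 21 did not pass, beside 8.74% higher and 19.1% lower over all genes. The list's median difference was 0.84 above that of all genes (0.81 in cluster cells and 0.72 in endothelial cells). In the shared set were 14 members. The antiviral genes Ifi44 and Oas2 had the largest fitted differences, but neither was well above background on a GFP- array, so they were at least 2.00-fold and 2.17-fold higher, measured on 3 of the 4 GFP+ arrays each. Of the others, Slfn2 and Lgals9 (above) and Ifi204 (2.03 and 1.61, average 1.82 ± 0.10) led. Irgm2, an immunity-related GTPase, was at -1.75 and -1.91 on GFP+ cluster, -2.88 and -2.99 on GFP- cluster, -2.35 and -2.49 on GFP+ endothelial and -3.40 and -3.52 on GFP- endothelial arrays; its average difference of 1.07 ± 0.05 was alike in the classes. Gbp7, a guanylate-binding protein, rose by 1.18 and 1.49 (average 1.33 ± 0.24) and was well above background on 3 of the 4 GFP- arrays. Near copies within the Oas, Ifi200, Slfn and Gbp families may share signal. The exception was Cmpk2, which fell by 0.52 ± 0.15 (adjusted p = 0.049), mostly in cluster cells (-0.86 against -0.19). Most of these genes are dim. The test of them depended on background correction, as did that of all genes. With normexp, which compresses dim signals, the list's median was 0.33 above that of all genes, and 1 member was called higher. Calls over all genes went from 5438 to 102 with normexp, and why calls were lost was not tested. With the RNA as a random block 22 members were called higher. Oas2 was at -0.031 with normexp.

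The promoters of 3 shared interferon-response genes that hold the response element are shown because they carry the motif through which interferons act; Irgm2 and Gbp7 were chosen after their values were seen. They are the 250 bases before the gene start, from RefSeq on GRCm38.p6, 5′ to 3′ in the direction of the gene, with the interferon-stimulated response element (GAAA, any 2 bases, GAAA) or its reverse complement in capitals. Lgals9 lies at chr11:78984925-78985174 (minus strand), Irgm2 at chr11:58214727-58214976 (plus) and Gbp7 at chr3:142530086-142530335 (plus).
Lgals9: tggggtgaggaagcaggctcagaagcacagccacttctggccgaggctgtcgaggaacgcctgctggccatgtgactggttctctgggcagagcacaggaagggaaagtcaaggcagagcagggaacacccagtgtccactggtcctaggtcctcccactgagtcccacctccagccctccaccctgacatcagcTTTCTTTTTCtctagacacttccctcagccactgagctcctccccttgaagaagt
Irgm2: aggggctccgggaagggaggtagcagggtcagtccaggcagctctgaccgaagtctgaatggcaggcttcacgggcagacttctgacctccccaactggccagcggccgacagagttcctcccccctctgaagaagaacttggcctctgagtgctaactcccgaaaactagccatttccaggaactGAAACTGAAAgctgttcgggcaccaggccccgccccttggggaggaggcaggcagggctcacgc
Gbp7: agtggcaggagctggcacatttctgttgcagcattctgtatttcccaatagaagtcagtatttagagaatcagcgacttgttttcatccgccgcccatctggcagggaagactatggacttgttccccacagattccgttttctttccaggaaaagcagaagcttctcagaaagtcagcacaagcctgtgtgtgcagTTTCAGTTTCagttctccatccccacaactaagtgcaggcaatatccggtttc
In each the element ends within 60 bases of the gene start. Of the 14 shared interferon-response genes 10 were matched to a promoter; 4 held the element, and Ifi44, Ifih1, Oasl1, Oasl2, Slfn2 and Xaf1 did not. Searched on both strands, the element was found in 47.2% of the 36 promoters of interferon-response genes that rose (32 genes matched), in 22.2% of the 27 promoters of those that did not, and in 2.98% of all 32851 promoters of the table; it was one of 8 motifs searched and can overlap the Ets-IRF motif, in which GGAA takes the place of the first GAAA. The list was written as interferon-stimulated genes, so a high share in the whole of it is no finding. Of the 207 shared higher genes as a whole, 144 were matched to 177 promoters, and 4.52% of those promoters held the element, against 2.53% of the promoters of all tested genes.

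The antigen presentation genes that interferons induce were higher too. Of 22 tested genes of MHC class I and the immunoproteasome, which cuts and loads peptides for display at the cell surface, 15 rose (68.2%). Over all genes 8.74% rose. In the list 7 were not called and 6 were shared, and the median was 0.83 above that of all genes. The class I heavy chain gene H2-D1 was at 1.61 and 1.59 on GFP+ cluster, 0.55 and 0.54 on GFP- cluster, 1.96 and 2.12 on GFP+ endothelial and 0.54 and 0.72 on GFP- endothelial arrays. The 2 GFP- groups were alike and both GFP+ groups were higher, by 1.23 ± 0.09 on average. H2-T23 rose by 1.38 ± 0.08, H2-Q6 by 1.08 in cluster and 1.32 in endothelial cells and H2-Q7 by 1.19 ± 0.08 on average, with the caution that H2 genes are near copies. Psmb9, an immunoproteasome subunit, rose by 1.63 ± 0.17. Normexp left 4 calls in this list, all higher.

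Fewer receptors and signal carriers of the interferon pathway were called, a difference from its targets that was not tested. Of 25 tested, 9 rose (36.0%), 1 fell (4.0%) and 15 missed the threshold, beside 8.74% higher and 19.1% lower over all genes. The median lay 0.16 above that of all genes, and no member was in the shared set. Irf8 rose by similar amounts in the classes (0.80 and 0.67, average 0.73 ± 0.06), while Irf5 (1.92 and 0.76), the phosphatase Ptpn6 (1.97 and 0.96) and the DNA sensor Cgas (1.19 and 0.65) had larger values in cluster cells. Sting1, the adaptor downstream of Cgas, fell by 0.32 ± 0.05.

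Of 50 tested genes of TNF, NF-kB and Toll-like receptor signalling, 21 rose (42.0%), 3 fell (6.0%) and 26 missed the threshold. Over all genes 8.74% rose and 19.1% fell. The list's median lay 0.36 above that of all genes. The cytokine gene Tnf rose by 1.65 in cluster cells and was at least 2.22-fold higher in endothelial cells. There its GFP- arrays were not well above background. Tnf was counted as shared on fitted values, and so was Il1b, which was at least 2.09-fold higher. Il6ra, which encodes the interleukin 6 receptor, was shared on measured values (1.94 in cluster and 1.31 in endothelial cells). Ptgs2 (cyclo-oxygenase 2) was counted as shared on fitted values too, and was at least 1.15-fold higher, measured on 3 of the 4 GFP+ arrays. Its bound was 1.82-fold in cluster cells. In endothelial cells it had none, so a similar size in both classes was not measured. Irak3, a brake on Toll-like receptor signalling, rose by 2.22 in cluster cells. It was at least 1.81-fold higher in endothelial cells, where GFP- arrays were not well above background. Relb fell by 0.45 ± 0.05, Traf2 by 0.24 ± 0.05 and Ly96 by 0.20 ± 0.05, each by nearly the same amount in both classes. With normexp the median was 0.16 above that of all genes, and the averages of Tnf, Il1b and Ptgs2 were -0.015, -0.082 and -0.28.

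**Figure D3:**
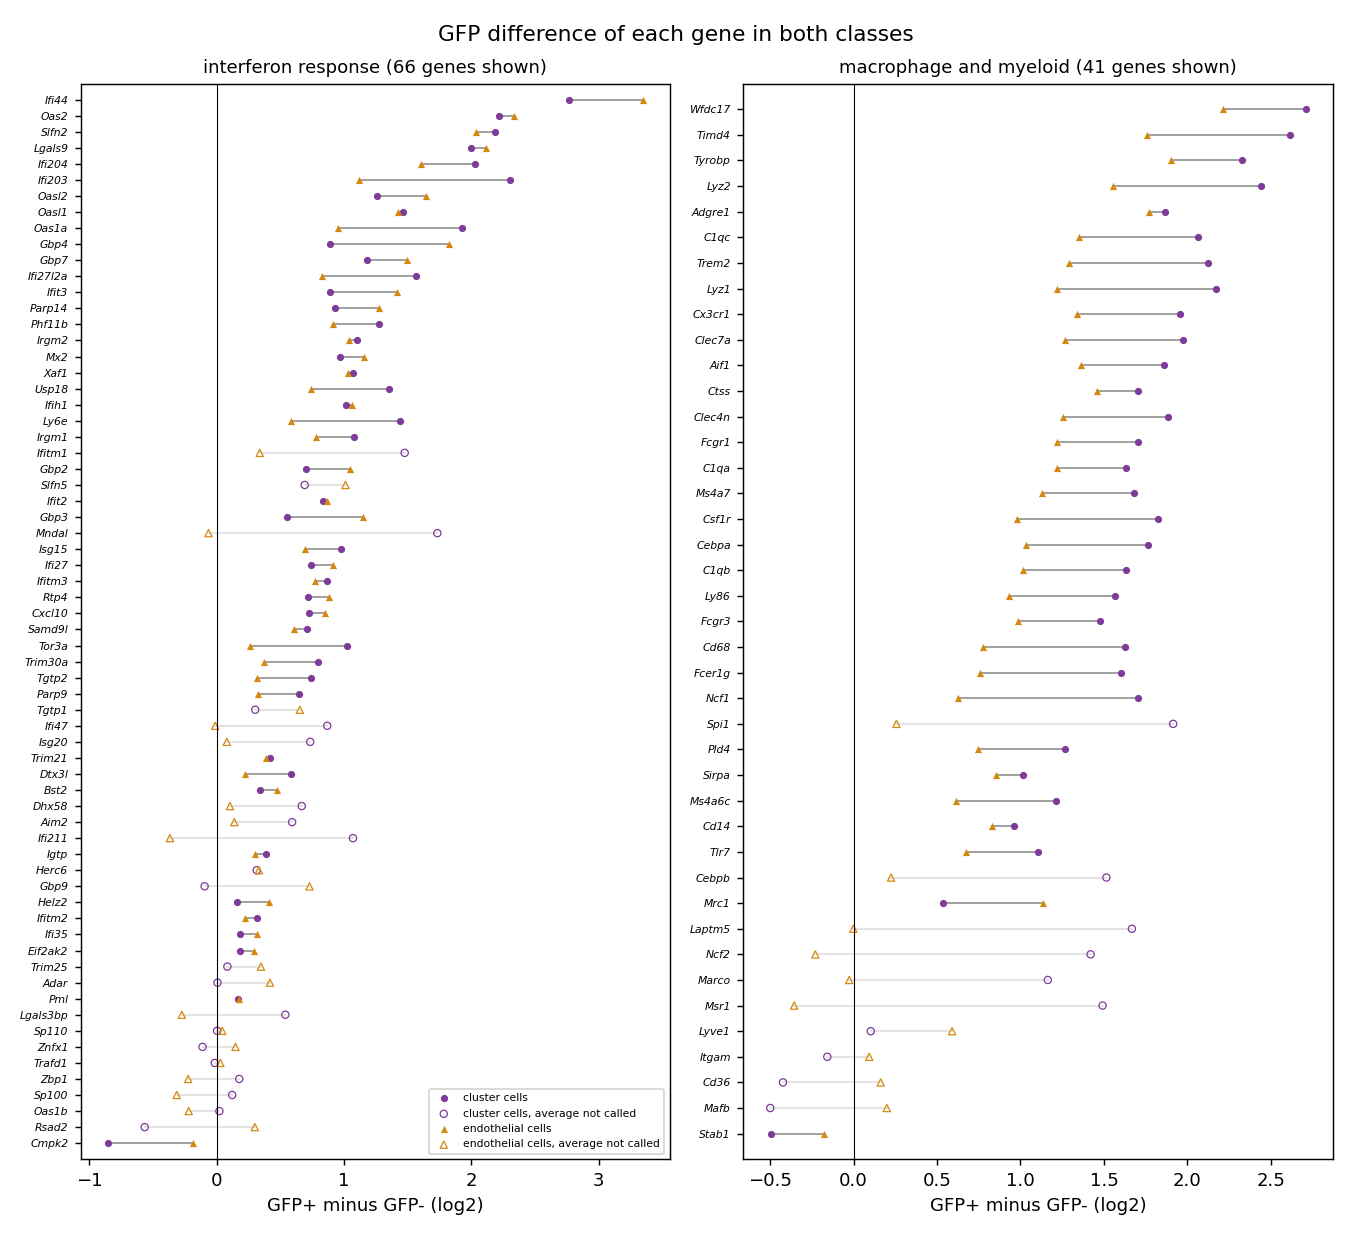
GFP+ minus GFP- difference (log2) of each tested gene of the interferon response (left) and the macrophage and myeloid list (right) in cluster cells (circles) and endothelial cells (triangles); open points mark genes whose average was not called. Of the 66 and 41 genes, 44 and 30 were called higher; in the myeloid list the circles lie mostly to the right of the triangles, some of which are fitted values against GFP- arrays not well above background.

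Macrophage and myeloid genes were higher in the GFP+ groups, with the larger median in cluster cells. Of 41 tested, 30 rose (73.2%), 1 fell (2.44%) and 10 did not pass, beside 8.74% higher and 19.1% lower over all genes. The median was 1.71 above that of all genes in cluster cells and 1.11 in endothelial cells, and 10 members were shared. Adgre1, which encodes the macrophage marker F4/80, was at 0.00 and 0.04 on GFP+ cluster, -1.79 and -1.90 on GFP- cluster, -1.72 and -1.42 on GFP+ endothelial and -3.40 and -3.28 on GFP- endothelial arrays, with differences of 1.87 and 1.77 (average 1.41 on another probe). GFP+ endothelial and GFP- cluster cells had similar levels. Tyrobp (2.33 and 1.90), Wfdc17 (2.71 in cluster cells), Timd4 (2.61), a receptor for dying cells, and the lysozyme gene Lyz2 (2.44) were the others with the largest averages. Wfdc17, Timd4 and Lyz2 were not well above background in GFP- endothelial cells, so there they were at least 1.58-fold, 2.48-fold and 2.93-fold higher. Stab1 fell by 0.34 ± 0.08.

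Of 12 macrophage markers, 12 were called higher in GFP+ cells. Their summed linear level was 29.9 to 30.1 times the 75th percentile on GFP+ cluster arrays, 10.4 to 10.7 on GFP- cluster, 10.9 to 11.4 on GFP+ endothelial and 4.82 to 4.98 on GFP- endothelial arrays. Cd68, Lyz2 and Timd4 were not well above background in GFP- endothelial cells, and no marker was below background everywhere. In bulk RNA, more cells of a type and more RNA per cell cannot be told apart. The part of these markers in the interferon, antigen presentation and TNF results, which moved in the same direction, was not tested. With normexp the myeloid median was 0.66 above that of all genes and 1 member was called higher. Of 6 granulocyte markers 1 (Ltf) was called higher. Their summed linear level was 22.1 to 22.4 on GFP+ cluster and 7.66 to 8.06 on GFP- cluster arrays. On GFP+ and GFP- endothelial arrays it was 1.34 to 1.63 and 1.73 to 1.80. In the list of granule genes Ltf and Srgn, the granule proteoglycan (1.31 ± 0.14), were the 2 that rose among 13. They were 15.4% of the list, beside 8.74% of all genes. The granule median relative to all genes was 1.22 in cluster cells and -0.39 in endothelial cells.

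Of the general blood cell genes many were higher as well, with a larger median in cluster cells. Of 42 tested, 21 rose, 1 fell (Ncf4, by 0.79 ± 0.09) and 20 did not pass, and 8 were shared. Those called higher and lower were 50.0% and 2.38%, beside 8.74% and 19.1% of all genes. Spn, which encodes the leukocyte surface protein CD43, was at 1.34 and 1.26 on GFP+ cluster, -0.75 and -0.87 on GFP- cluster, -1.85 and -1.94 on GFP+ endothelial and -3.78 and -3.83 on GFP- endothelial arrays. The order of the groups was set by class first and GFP second, and the GFP differences of 2.11 and 1.92 were close; its other probe, bright enough on 5 arrays, gave 2.04 and 1.17. Evi2a rose by 1.89 and 1.35. Arhgap30 (2.18 in cluster cells) and Dock2 (2.07), regulators of the cytoskeleton in leukocytes, were not well above background in GFP- endothelial cells, where Dock2 has a bound of 1.08-fold and Arhgap30 none, so a similar size in both classes was not measured. Cd33 was at least 2.11-fold higher, though at -0.0067 with normexp. The list's median was 1.65 above that of all genes in cluster cells and 0.42 in endothelial cells. With normexp no member was called and the median over both classes went from 0.98 to 0.47, and with the RNA as a random block 12 were called higher and 1 lower.

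Among 50 tested hematopoietic transcription factors 15 rose, 6 fell and 29 did not pass, and 5 were shared in either direction. The share that rose was above the 8.74% of all genes, and the share that fell was below their 19.1%. Normexp left 2 calls higher and 1 lower in this list. Besides Gfi1, Ikzf2 (Helios) rose by 2.01 and 1.57 (average 1.79 ± 0.10; 1.92 and 0.51 on its other probe), and Hlf, a factor of stem cells, by 2.41 and 1.38. Etv2, which starts the endothelial and blood programmes in the early embryo, was at -3.23 and -3.34 on GFP+ cluster, -1.51 and -1.44 on GFP- cluster, -3.70 and -3.86 on GFP+ endothelial and -2.16 and -2.17 on GFP- endothelial arrays. It fell by 1.81 and 1.61 (average -1.71 ± 0.07, adjusted p = 0.00029), and its other probe gave -1.44. Gata1, the master factor of red cells and platelets, was at -0.54 and -0.58, 1.04 and 1.096, -1.58 and -1.68, and -0.08 and -0.13 in the same order. Its differences of -1.63 and -1.53 were alike (class difference 0.10, 95% interval -0.09 to 0.29). Klf1, a red cell factor that acts with it, fell by 2.88 in cluster cells and 1.35 in endothelial cells.

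Of 45 genes associated with hematopoietic stem cells 16 rose (35.6%), 5 fell (11.1%) and 24 missed the threshold. Over all genes the shares were 8.74% and 19.1%. The list's median lay 0.53 above that of all genes. Ly6a, on whose reporter the cells were sorted, is among the 16 and is a check there too. With normexp 4 members were called higher and 0 lower. Procr, which encodes the protein C receptor of stem cells and endothelium, was at 3.14 and 3.15 on GFP+ cluster, 2.18 and 2.15 on GFP- cluster, 3.26 and 3.20 on GFP+ endothelial and 2.12 and 2.09 on GFP- endothelial arrays. The level followed GFP state and hardly cell class, with an average difference of 1.05 ± 0.05. Adgrg1 (GPR56) rose by 2.04 and 0.89, and Vwf, von Willebrand factor, by 1.36 and 2.27. Among those that fell were Pdzk1ip1, Abcg2, Robo4 and Hoxb4, by 0.57, 0.39, 0.33 and 0.27. Of 37 cytokine and growth factor receptors 9 rose and 3 fell, 24.3% and 8.11%. Csf1r (1.83 in cluster cells and 0.98 in endothelial cells) and Osmr (0.87 and 1.61) were among those that rose. Epor (-1.06 ± 0.28), Pdgfrb (-0.61 ± 0.07) and Cxcr4 (-0.46 ± 0.09) were those that fell.

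**Figure D4:**
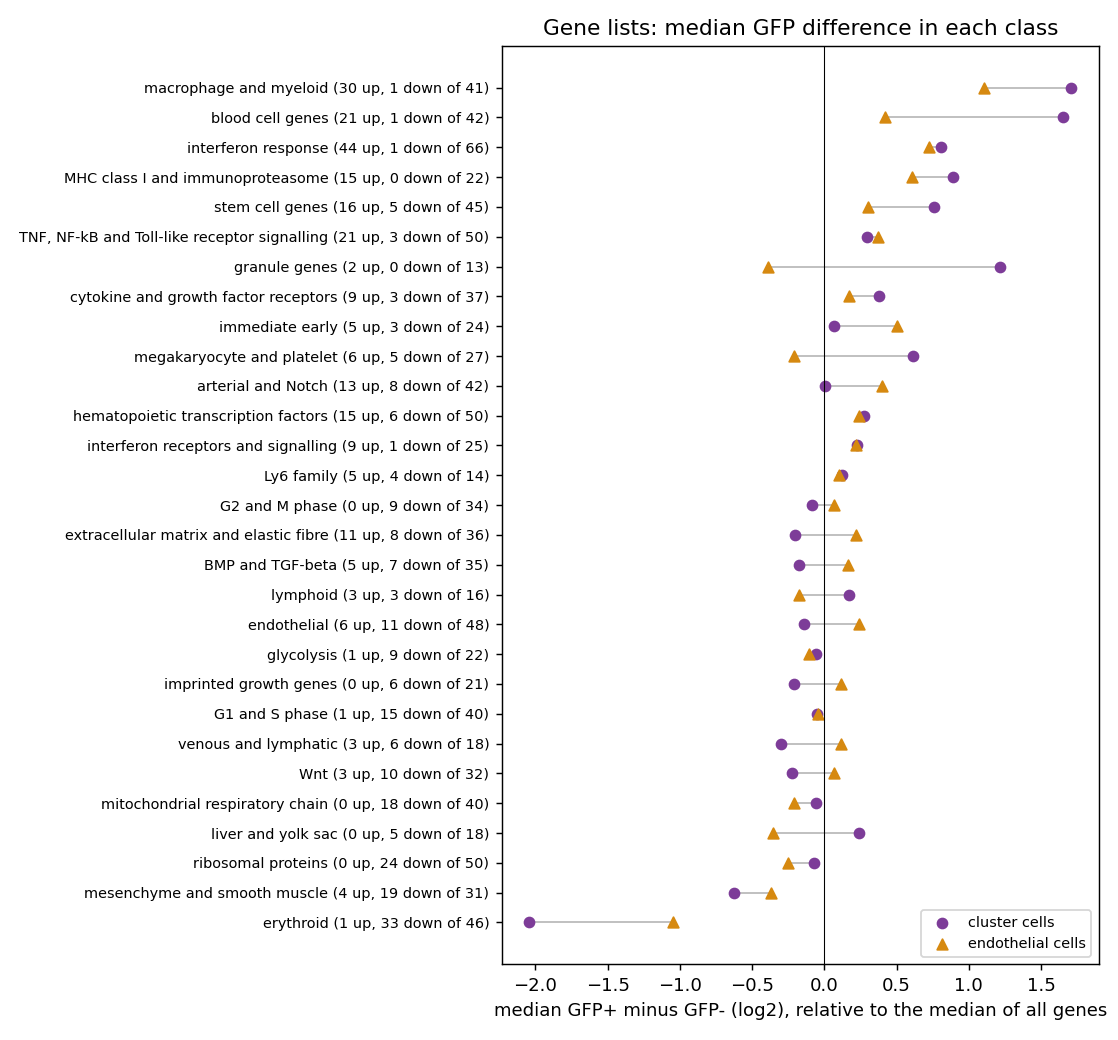
Median GFP+ minus GFP- difference (log2) of each gene list in cluster cells (circles) and endothelial cells (triangles), relative to the median of all tested genes; the labels give the members called up and down among those tested. The interferon response lies at 0.81 and 0.72 and the erythroid list at -2.04 and -1.05, each on the same side in both classes.

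Red cell genes were lower in GFP+ cells and had the lowest median of the lists examined. They supply hemoglobin, heme synthesis and the membrane skeleton, and at this stage most belong to primitive red cells made in the yolk sac. Of 46 tested, 33 fell (71.7%), 1 rose (2.17%) and 12 did not pass, beside 19.1% lower and 8.74% higher over all genes. The median was 2.04 below that of all genes in cluster cells and 1.05 below in endothelial cells. Slc4a1, the anion exchanger band 3 (chromosome 11, 102210256 to 102210315), was at -0.19 and -0.18 on GFP+ cluster, 3.97 and 3.96 on GFP- cluster, -0.85 and -0.83 on GFP+ endothelial and 2.03 and 1.89 on GFP- endothelial arrays. Rhd, a blood group antigen, was at -2.05 and -2.09, 2.04 and 2.15, -2.19 and -2.29, and 0.55 and 0.54. Alas2, the first enzyme of heme synthesis in red cells, was at -1.22 and -1.10, 2.78 and 2.93, -1.38 and -1.30, and 1.49 and 1.44. In all of these the GFP- cluster arrays were the highest; the 2 GFP+ groups were close for Rhd and Alas2, while for Slc4a1 GFP+ endothelial cells lay below GFP+ cluster cells. The averages were -3.47 ± 0.28, -3.47 ± 0.29 and -3.41 ± 0.26, and the fall was larger in cluster cells by 1.34, 1.38 and 1.21.

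The globins fell by more similar amounts in both classes. The embryonic globin Hbb-bh1 (chromosome 7, 110990209 to 110990268) was at 5.49 and 5.44 on GFP+ cluster, 8.14 and 8.23 on GFP- cluster, 5.52 and 5.54 on GFP+ endothelial and 7.82 and 7.83 on GFP- endothelial arrays. The GFP+ arrays of both classes were within 0.2 of each other, and the average was -2.51 ± 0.10. Hbb-y fell by 2.70 and 2.12 (its other probe by 1.25 on average), Hbb-bt by 3.37 and 2.52, and Hba-a2 by 2.46 and 2.12; the Hba and Hbb genes are near copies whose signals cannot be told apart with certainty. The exception was the water channel gene Aqp1, which endothelium also expresses: it rose by 1.37 and 1.79 (average 1.58 ± 0.10).

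All 10 red cell markers were called lower in GFP+ cells. Their summed linear level was 148 times the 75th percentile on both GFP+ cluster arrays, 1119 to 1135 on GFP- cluster, 160 to 168 on GFP+ endothelial and 742 to 765 on GFP- endothelial arrays. Rhag was among the markers not well above background in GFP+ cluster cells; no marker was below background in every group. Whether cells of the red lineage, or their RNA, entered the gates in different amounts cannot be told apart from a different level per cell. With normexp 11 members of the list were called lower and 1 higher, and the median was 1.26 below that of all genes.

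The promoters of 3 shared red cell genes with a GATA site are shown, since the motif is that of GATA factors of red cells. They cover the same window from the same source, with AGATAA or its reverse complement in capitals: Alas2 at chrX:150547167-150547416 (plus strand), Rhd at chr4:134864286-134864535 (plus) and Epb42 at chr2:121036878-121037127 (minus).
Alas2: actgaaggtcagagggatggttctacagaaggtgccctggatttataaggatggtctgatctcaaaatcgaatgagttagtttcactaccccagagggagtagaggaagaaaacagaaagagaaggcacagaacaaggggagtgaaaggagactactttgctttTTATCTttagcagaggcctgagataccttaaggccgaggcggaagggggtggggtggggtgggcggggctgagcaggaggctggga
Rhd: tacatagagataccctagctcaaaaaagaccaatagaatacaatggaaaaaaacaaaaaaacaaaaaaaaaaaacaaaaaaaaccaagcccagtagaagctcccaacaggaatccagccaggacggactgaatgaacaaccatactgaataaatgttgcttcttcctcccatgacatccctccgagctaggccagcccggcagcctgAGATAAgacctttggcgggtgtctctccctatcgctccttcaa
Epb42: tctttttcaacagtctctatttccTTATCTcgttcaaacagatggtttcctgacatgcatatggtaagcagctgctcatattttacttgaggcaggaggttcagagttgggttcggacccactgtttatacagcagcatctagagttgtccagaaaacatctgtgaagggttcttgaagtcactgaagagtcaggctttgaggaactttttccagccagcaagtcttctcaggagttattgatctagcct
Of the 14 shared members of the erythroid list 10 were matched; 4 held the motif, and Aqp1, Gata1, Hba-a2, Hbb-bt, Hbb-y and Tfr2 did not. The motif was found in 29.2% of the 24 promoters of erythroid genes that fell, in 0 of the 12 promoters of those that did not, and in 9.99% of all promoters of the table (6.42% of those of tested genes). In the shared lower set as a whole it was in 11.5% of the 122 promoters of the 96 genes matched. It is short and found by chance in many windows of this length, so a match is no binding site.

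Lower genes outside the red cell list included Mt2, the metal-binding protein metallothionein 2, at 1.52 and 1.60 on GFP+ cluster, 4.79 and 4.73 on GFP- cluster, 0.96 and 0.96 on GFP+ endothelial and 3.36 and 3.44 on GFP- endothelial arrays (average -2.82 ± 0.17). Acp5, a tartrate-resistant acid phosphatase, fell by 2.96 and 2.27, with a second probe at -2.59 on average. Mrap, an accessory protein of the melanocortin 2 receptor, fell by 2.51 and 1.95, and Tent5c, a poly(A) polymerase, by 2.35 and 1.79. Paqr6, a progestin receptor family member, fell by 2.85 and 2.16 on its brightest probe, but its other probes gave 0.11 and -0.86. As with the red cell genes, the GFP- cluster arrays held the highest level of each.

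Arterial genes were called higher more often than all genes, and called lower about as often. The large arteries depend on VEGF and Notch signalling, and hemogenic endothelium is arterial in part. Of 42 tested, 13 rose, 8 fell and 21 did not pass, and the median was 0.00 in cluster cells and 0.40 in endothelial cells relative to all genes. Besides Gja5, Bmx, an arterial tyrosine kinase, was at -0.22 and -0.18 on GFP+ cluster, -1.76 and -1.64 on GFP- cluster, 0.77 and 0.87 on GFP+ endothelial and -0.99 and -1.02 on GFP- endothelial arrays. Both GFP+ groups lay above both GFP- groups, by 1.66 ± 0.08 on average. The Notch target Hey2 rose by 1.94 in endothelial cells and was at least 1.57-fold higher in cluster cells, where GFP- arrays were not well above background, and Alox5ap, which serves leukotriene synthesis, rose by 1.99 in cluster and 1.39 in endothelial cells. Ltbp4, a TGF-beta binding protein of elastic fibres, rose more in endothelial cells (1.29 and 2.05). Of the 7 shared members, 6 were higher, with Gja4 (1.17 ± 0.06) and Stmn2 (1.30 and 1.70) among them, and Igfbp3 (-1.17 and -0.85) was lower. Among the Notch genes that fell were the targets Hes1 (average -0.70) and Hes5 (-0.67), opposite to Hey2. Gja4, Stmn2, Igfbp3, Hes1 and Hes5 were singled out after their values were seen. With normexp 5 members of the list were called higher and 0 lower, and with the RNA as a random block 8 and 2.

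Pan-endothelial genes showed few large shared differences. Of 48 tested, 6 rose (12.5%), 11 fell (22.9%) and 31 missed the threshold, beside 8.74% higher and 19.1% lower over all genes. Over both classes the median lay 0.02 above that of all genes. By class it was at -0.14 in cluster cells and 0.24 in endothelial cells, relative to all genes. Procr and Vwf led those that rose, and Calcrl, part of the adrenomedullin receptor, followed with 0.81 ± 0.05. Esm1, a tip cell proteoglycan gene, was at 0.31 and 0.26 on GFP+ cluster, 1.61 and 1.49 on GFP- cluster, 0.58 and 0.73 on GFP+ endothelial and 1.94 and 1.99 on GFP- endothelial arrays. The fall of 1.29 ± 0.06 was nearly equal in the classes. Of 18 venous and lymphatic genes 3 rose and 6 fell, 16.7% and 33.3%. Pdpn (podoplanin) fell by 1.12 and 1.13. The lymphatic factor Prox1 was at least 2.84-fold lower in cluster cells and fell by 1.01 in endothelial cells.

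**Figure D5:**
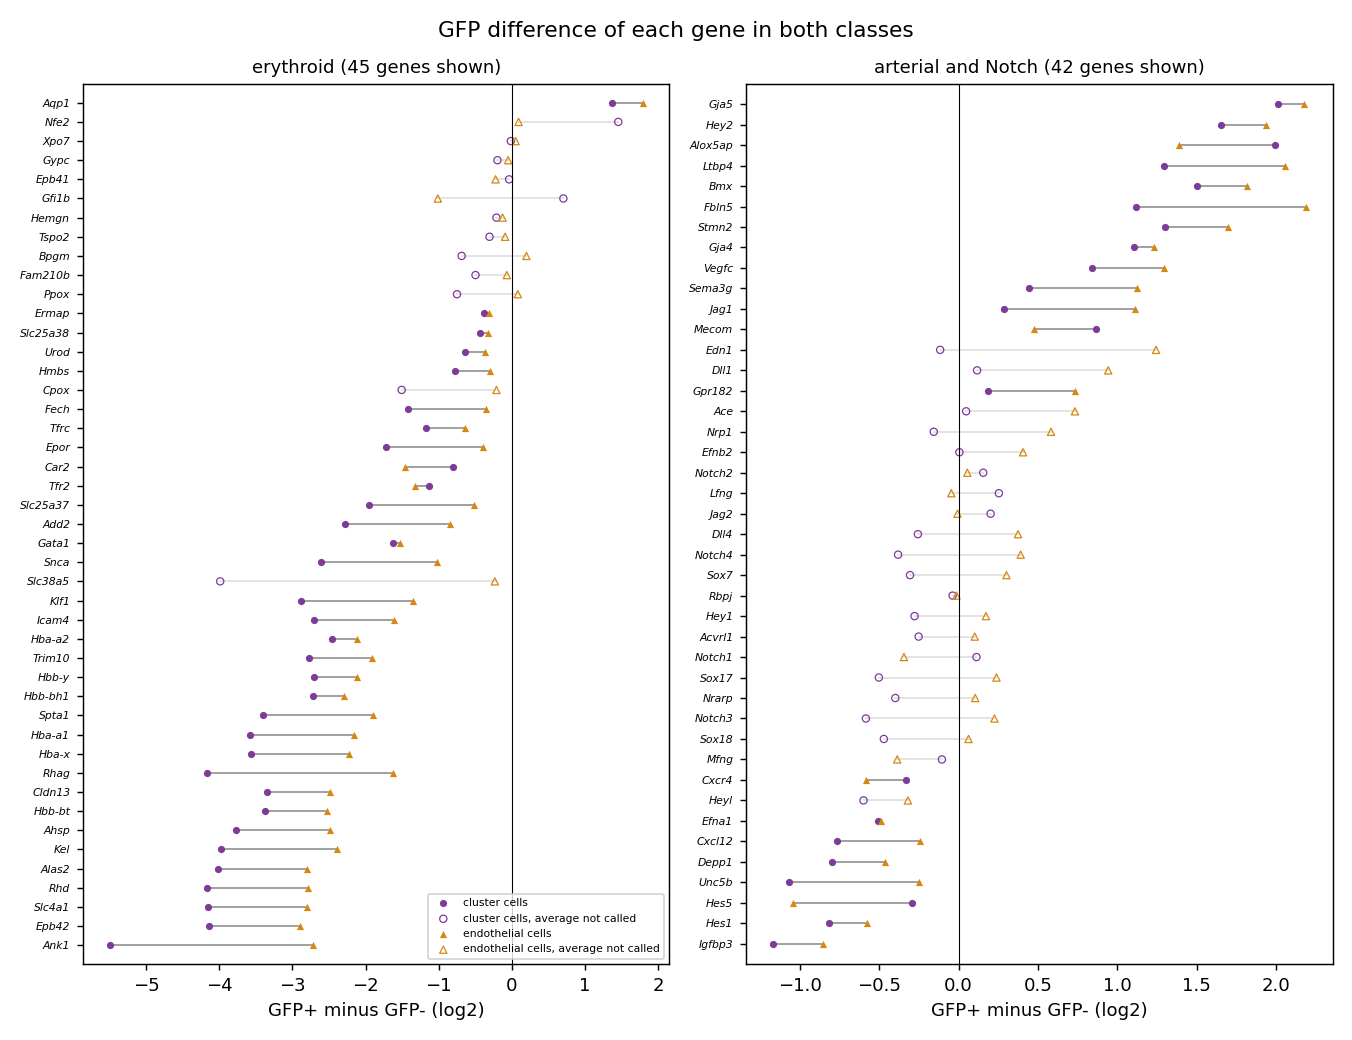
GFP+ minus GFP- difference (log2) of tested erythroid genes (left, all but 1) and of each tested arterial or Notch gene (right) in cluster cells (circles) and endothelial cells (triangles); open points mark genes whose average was not called. Of the 46 erythroid genes 33 were called lower, with circles mostly farther from 0; the arterial list holds 13 called higher and 8 called lower.

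Of the mesenchymal and smooth muscle genes most were lower. Of 31 tested, 19 fell (61.3%), 4 rose (12.9%) and 8 missed the threshold, beside 19.1% lower and 8.74% higher over all genes. The median lay 0.56 below that of all genes. The collagen-binding proteoglycan gene Dcn was at -0.77 and -0.78 on GFP+ cluster, 0.25 and 0.36 on GFP- cluster, -0.11 and -0.13 on GFP+ endothelial and 1.38 and 1.25 on GFP- endothelial arrays, a fall of 1.26 ± 0.09. Lum fell by 0.96 ± 0.06 and Prrx1 was at least 2.55-fold lower in cluster cells. The 4 that rose were Fbn1 (0.75 and 2.05 in cluster and endothelial cells), Gata4 (1.21 ± 0.22), Fn1 (0.60 ± 0.12) and Acta2 (0.23 ± 0.05). The summed level of 6 mesenchymal markers was 6.46 to 6.57 on GFP+ cluster, 10.6 to 10.7 on GFP- cluster, 11.0 to 11.1 on GFP+ endothelial and 13.5 on GFP- endothelial arrays, and 4 of the 6 were called lower. With normexp 1 gene of the list was called lower and 0 higher, and with the RNA as a random block 8 and 1. Their part in the result was not tested.

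Of 36 matrix and elastic fibre genes tested, 11 rose and 8 fell, 30.6% and 22.2%, beside 8.74% and 19.1% of all genes. Htra1 led, followed by Mfap5 (1.74 and 2.77), a microfibril protein, and Fbln5 (1.12 and 2.19), both larger in endothelial cells. Col15a1, a basement membrane collagen, fell by 1.48 and 1.93, with its other probes at -1.41 and -1.33 on average. In the BMP and TGF-beta list 5 rose and 7 fell of 35, 14.3% and 20.0%, beside 8.74% and 19.1% of all genes; Bmper (1.16 and 1.83) and Smad6 (0.74 ± 0.07) led those that rose, and Tgfb3 (-0.52 ± 0.07) and Bmp7 (-0.51 ± 0.07) those that fell.

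Genes of ribosomes and respiration had small differences whose sign and calls depended on the scaling. Of 50 ribosomal protein genes 24 fell and the other 26 missed the threshold, with a median -0.16 relative to all genes, and of 40 respiratory chain genes 18 fell and the other 22 missed it, with a median -0.12; after quantile normalization the medians were 0.030 and 0.0021, and 0 and 1 genes were called lower; with normexp, or with the RNA as a random block, limma called 0 of either list. Rpl14 (-0.52 ± 0.11) and Cycs, cytochrome c (-0.45 ± 0.12), had the largest averages. Of 40 genes of G1 and S phase 15 fell and 1 (Cdkn2c, by 0.35 ± 0.09, but -0.25 with normexp) rose, and of 34 of G2 and M phase 9 fell and 25 did not pass; the medians were -0.03 and 0.04 relative to all genes, close to that of all genes, and the former was 0.030 after quantile normalization. Lower calls made up 48.0% of the ribosomal list and 45.0% of the respiratory chain list. They made up 37.5% and 26.5% of the cell cycle lists, beside 19.1% of all genes. Quantile normalization left 7 and 4 calls lower in the cell cycle lists, the RNA as a random block 1 and 0, and normexp 0 and 0. The replication factor gene Gins2 (-0.59 ± 0.08) and Ccnd1, cyclin D1 (-0.53 ± 0.08), fell most.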

How the data were processed

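Each array was read with Agilent Feature Extraction 10.10.1.1, per the submitters' processing notes; the deposited intensity values are its background-corrected signals of 1-colour arrays. Per the labels' protocols, RNA was amplified with an RNA-Seq kit and 50 ng labelled with Cy3. The intensity values normalized by the authors served as an alternative; the sources used here do not give their method. Each array's log2 signals were scaled to the 75th percentile; 43020 spots gave 39419 probes (10 left out by outlier flags; 26049 named by accession, 3194 by current symbol, 10176 by the file's name), and each gene took its brightest probe. Tested were 19538 of 31890 genes, those that both arrays of some group placed well above background, with limma 3.58.1 in R 4.3.3 (with data.table, version 1.17.8): GFP, class and slide for the average (4 residual degrees of freedom), and group means with slide for class differences. Replicate numbers mark slides, and arrays of a number deviated together (correlations 0.139 to 0.359), so slide was a block. A gene not well above background on any array of a GFP state has a bound: the bright state's mean over the dim state's, in which an array counts with its own signal or with the lowest signal well above background, whichever is higher. The named genes are the 12 largest shared changes each way on all 8 arrays, the 5 largest bounds each way, the sort genes and up to 5 called members of each list, with all members where a count was 5 or fewer. Members and lists were chosen with earlier results of these data known. Probe positions are mm9; promoters are RefSeq, GRCm38.p6. The fit was tested on simulated data. Each group is a single RNA on 2 arrays, and the number of RNA samples limits the precision. Some genes of the lists are counted but not reported by name here.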

Additional observations from a re-analysis of the deposited data

Results flagged for a closer look

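The tests of the difference between cell classes singled out 15 of the 24 largest shared genes: their GFP difference had the same direction in both classes but not the same size. Values are the endothelial difference minus the cluster difference on the log2 scale. Among genes higher in GFP+ cells, Htra1 (0.94) and Pdlim3 (0.63) rose more in endothelial cells, and Tyrobp (-0.42) and Slc11a1 (-0.51) rose more in cluster cells. Among genes lower in GFP+ cells, each fell more in cluster cells: Rhd (1.38), Slc4a1 (1.34), Alas2 (1.21), Hbb-bt (0.85), Mt2 (0.76), Acp5 (0.69), Paqr6 (0.69), Hbb-y (0.59), Tent5c (0.56), Hbb-bh1 (0.42) and Hba-a2 (0.34). The groups of 2 arrays are too small for a test of single outlying arrays.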

How the results depend on the processing

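The main limit is that each group is a single RNA measured on 2 arrays. With the 2 arrays of each RNA averaged, and on either slide alone, limma called 0 genes and the shared set was 0, while 2350, 2201 and 2347 genes had an unadjusted p under 0.05. Calls of the average, 5438 in the report, were 102 with normexp background correction, 1917 with no filter on dim probes, 885 with the RNA as a random block, 1097 against a 1.2-fold threshold and 11319 with group means in the fit, and 2454 to 3487 without 1 array. Without the replicate block they were 6162 and the shared set 362, and no call of a named gene changed. The shared set, 361, was 67 with normexp, 211 for genes above background on all arrays, 545 and 203 with the smaller change at least 1/2 or 4/5 of the larger, and 341 to 364 without 1 array. In the other settings both totals stayed within 1.5 times, but the shared lower genes were 99 after quantile normalization and 98 in the authors' values, against 154. With the RNA as a random block, calls higher and lower were 9 and 0 in antigen presentation, 8 and 0 in TNF signalling, 23 and 0 in myeloid, 1 and 23 in erythroid, 7 and 3 in transcription factor, 8 and 2 in stem cell, 3 and 2 in endothelial, 7 and 1 in matrix, 4 and 0 in receptor and 4 and 0 in interferon signalling lists. Of 195 named genes, 41 had the same call with normexp and 168 after quantile normalization or in the authors' table. Signs reversed with normexp for Blnk (-0.39), Ptgs2 (-0.28), Cdkn2c (-0.25), P2ry12 (-0.21), Ly6g (-0.20), Il21r (-0.12), Vpreb1 (-0.12), Il1b (-0.082), Oas2 (-0.031), Tnf (-0.015) and Cd33 (-0.0067), and for Mad2l1 (0.058) with the mean of its probes; the cause was not tested.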

Other observations

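The Ly6 family, clustered in part around Ly6a, did not move as one. Of 14 tested, 5 rose and 4 fell, 35.7% and 28.6%, beside 8.74% and 19.1% of all genes. Besides Ly6a and Ly6c1, Ly6e (1.44 in cluster cells and 0.58 in endothelial cells) and Plaur (0.50 and 0.62) rose, and Ly6g was at least 1.49-fold higher, well above background on 2 of the 4 GFP+ arrays. Ly6i and Lypd1 fell by 1.30 and 0.56 in endothelial cells and were at least 4.10-fold and 1.55-fold lower in cluster cells, where GFP+ arrays were not well above background. Ly6h (-1.19 and -0.83) and Gpihbp1 (-0.75 and -0.65) fell. Among 24 immediate early genes 5 rose and 3 fell, 20.8% and 12.5%. Zfp36, which shortens the life of cytokine messages, had the largest difference (1.63 and 1.74, average 1.68 ± 0.13). Fosb (0.66 ± 0.08) and Fos (0.44 ± 0.12) followed, while Jun (-0.44 ± 0.12), Junb (-0.32 ± 0.06) and Ier2 (-0.26 ± 0.05) were lower.

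Of 22 glycolysis genes 9 fell (40.9%) and 1 rose (4.55%), beside 19.1% and 8.74% of all genes. The glucose transporter gene Slc2a1 (-0.84 and -1.37), which red cells also express, and Pfkl (-0.77 and -0.81) fell most, and Hk2 rose by 0.45 ± 0.09. Of 32 Wnt genes 10 fell (31.25%) and 3 rose (9.38%). Lef1 (-1.17 and -0.92) and Nkd1 (-0.82 and -1.09, average -0.16 on a dimmer probe), both induced by Wnt signalling, fell by similar amounts in the classes. Sfrp2 (0.49 ± 0.13) and Dkk2 (0.37 ± 0.09) rose, while Wnt9b was at least 4.19-fold higher in endothelial cells. Of 21 imprinted growth genes 6 fell (28.6%, beside 19.1% of all genes) and 15 did not pass. Dcn, Nnat (-0.85 ± 0.07) and Grb10 (-0.71 ± 0.19) led those that fell. Of 27 megakaryocyte and platelet genes 6 rose and 5 fell, 22.2% and 18.5%, beside 8.74% and 19.1% of all genes. Vwf and F5 (1.18 ± 0.25) were among the former and Clec1b (-0.74 ± 0.06) and Gng11 (-0.54 ± 0.06) among the latter. The platelet median relative to all genes was 0.61 in cluster cells and -0.21 in endothelial cells. Of 18 liver and yolk sac genes 5 fell (27.8%, beside 19.1% of all genes) and 13 did not pass. Those that fell were Serpina1a, Fgg, Fgb, Afp and Apoa2, by 0.38 to 0.61. Of 16 lymphoid genes 3 rose (Cd79b, Vpreb1 and Blnk) and 3 fell (Ebf1, Tcf7 and Lck). Each was 18.75% of the list, and for lower calls that was near the 19.1% of all genes. With the RNA as a random block fewer of these calls were made: 3 higher and 3 lower in the Ly6 family, 2 and 0 in immediate early genes, 0 and 2 in glycolysis, 0 and 6 in Wnt genes, 0 and 2 in imprinted genes, 1 and 3 in platelet genes and 0 and 3 in lymphoid genes.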
